A study of Mus musculus with 5 samples.

Results

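Among the sorted cells of mouse retinas there were 85 barcodes with the transcripts of a pigment epithelium, out of 10751 barcodes that passed the same limits and 15293 as deposited. A barcode was taken as a pigment epithelium-like cell if it had at least 1000 UMIs (unique molecular identifiers, each standing for 1 captured RNA molecule), at most 15% of its UMIs from mitochondrial genes, and a UMI of at least 3 of the 8 genes *Rpe65*, *Ttr*, *Lrat*, *Best1*, *Pmel*, *Tyrp1*, *Dct* and *Mlana*. These 8 genes chose the cells, and their values are given as a description with no test.

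The mice were Glast-CreERT2; Rosa26-Ai65 on C57BL/6J, 12 to 20 weeks old, males and females pooled. All received tamoxifen and an intravitreal AAV of the ShH10 capsid in which the *Gfap* promoter drove FlpO together with mKate2, a red fluorescent protein that served as the control, or with Yap5SA, an activated form of the transcriptional coactivator YAP. tdTomato in these mice needs both Cre, driven by the promoter of a glial glutamate transporter, and FlpO from the virus, and the labels name the sorted cells as Müller glia. Retinas were pooled at day 56, 16 in the *mKate2* AAV group and 21 in the *Yap5SA* AAV group, and the labels do not tie a capture to single animals. The *mKate2* AAV group has 2 captures and the *Yap5SA* AAV group has 3, and replicates 1 and 2 of *Yap5SA* AAV shared 1361 barcodes (99.8% of the smaller), so replicate 2 was left out and 4 captures were used, with totals of 13134827 to 50938304 UMIs. Any other pair of captures shared at most 0.218% of barcodes. The p-value for the shares below measures the spread between captures, which may be technical. The gene tests compare chosen with other cells inside each capture. Their p-values measure how evenly that difference held over 2 captures, with the spread estimated across genes, and that spread may be technical too.

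The retinal pigment epithelium is the single layer of pigmented cells behind the photoreceptors. It re-isomerises the visual chromophore for them in the retinoid (visual) cycle, carries nutrients, ions and lactate between the choroid and the retina, digests shed outer segments in its lysosomes, and makes melanin. It derives from the neuroectoderm of the optic cup, like the Müller glia and neurons, while melanocytes of the choroid come from the neural crest.

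Stretches of mouse promoter show the genes that chose the cells beside a gene that the rule did not use. RefSeq promoter windows of 300 bases, most of them upstream of the gene start (build GRCm38.p6), were found for 13 of 15 pigment epithelium genes looked up. The 4 below are printed because each held both motifs searched: CATGTG, the core bound by MITF, and TAATCC, the core bound by OTX2 and related homeodomain factors, each read on both strands (as CACATG and GGATTA on the other). Capitals mark the motifs, which do not overlap each other here.
Rpe65, chr3:159598931-159599230, plus strand: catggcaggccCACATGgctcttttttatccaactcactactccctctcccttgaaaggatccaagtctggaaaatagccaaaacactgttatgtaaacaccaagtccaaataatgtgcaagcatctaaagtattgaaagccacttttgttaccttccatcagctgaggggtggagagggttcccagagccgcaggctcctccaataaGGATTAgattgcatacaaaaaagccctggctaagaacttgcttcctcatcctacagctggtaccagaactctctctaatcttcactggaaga
Tyrp1, chr4:80833963-80834262, plus strand: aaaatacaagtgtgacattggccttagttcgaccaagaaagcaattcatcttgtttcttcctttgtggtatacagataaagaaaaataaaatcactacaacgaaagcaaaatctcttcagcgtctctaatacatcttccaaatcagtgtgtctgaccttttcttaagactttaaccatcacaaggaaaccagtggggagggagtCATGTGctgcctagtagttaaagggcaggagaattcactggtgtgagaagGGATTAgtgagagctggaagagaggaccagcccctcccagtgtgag
Dct, chr14:118052197-118052496, minus strand: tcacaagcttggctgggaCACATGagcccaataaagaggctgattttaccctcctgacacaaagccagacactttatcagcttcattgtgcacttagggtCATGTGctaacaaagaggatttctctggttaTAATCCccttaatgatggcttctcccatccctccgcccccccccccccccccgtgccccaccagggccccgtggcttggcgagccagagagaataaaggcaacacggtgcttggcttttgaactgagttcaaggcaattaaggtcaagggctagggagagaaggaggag
Rgr, chr14:37048965-37049264, minus strand: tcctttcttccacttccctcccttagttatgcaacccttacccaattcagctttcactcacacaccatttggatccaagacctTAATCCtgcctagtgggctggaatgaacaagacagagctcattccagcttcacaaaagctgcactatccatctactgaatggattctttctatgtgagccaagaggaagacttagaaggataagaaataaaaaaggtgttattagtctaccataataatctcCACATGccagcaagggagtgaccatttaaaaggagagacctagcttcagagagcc
CATGTG was held by 7 of the 13 genes and by 14.2% of all 32851 promoters, and TAATCC by 5 of the 13 and by 7.06% of all. A match is a string of letters and no measure of binding. *Rpe65* encodes the isomerohydrolase of the retinoid cycle and lies at chr3:159304802-159330958 in GRCm39. *Tyrp1* and *Dct* encode melanin enzymes, and *Rgr*, at chr14:36756866-36770921 in GRCm39, encodes an opsin of the pigment epithelium and Müller glia.

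The cells were unevenly spread over the captures. In *mKate2* AAV, replicate 1 held 0 of 1677 barcodes (a count of 0 allows at most 0.179%) and replicate 2 held 22 of 5637 (0.390%, exact binomial 95% interval 0.245 to 0.590). In *Yap5SA* AAV, replicate 1 held 3 of 1127 (0.266%, 0.0549 to 0.776) and replicate 3 held 60 of 2310 (2.60%, 1.99 to 3.33). Replicate 3 of *Yap5SA* AAV therefore stood above the other captures beyond counting error, and the lower share of the Yap5SA group lay between the 2 mKate2 shares. Intervals and limits for 0 cover counting error only.

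**Figure D1:**
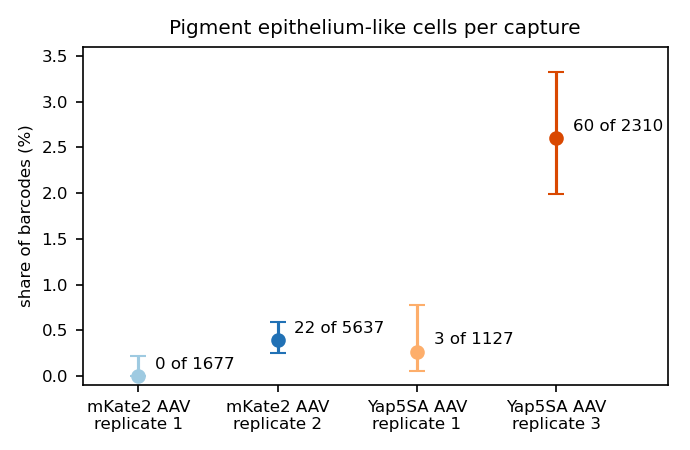
Share of barcodes within the limits that were pigment epithelium-like cells, in percent, for the 4 captures. Points are shares, bars are exact binomial 95% intervals, and the counts stand beside them. The 60 cells of Yap5SA AAV replicate 3 lie above the others, at 2.60%.

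The mean share was 1.43% ± 1.65 (SD, n = 2) with *Yap5SA* AAV and 0.195% ± 0.276 (SD, n = 2) with *mKate2* AAV, a difference of 1.24 percentage points (two-sided exact permutation test, p = 0.667, where the smallest p for 2 against 2 is 0.33). The matrix headers name Cell Ranger 8.0.0 for replicate 1 of each group and 9.0.1 for *mKate2* AAV replicate 2 and *Yap5SA* AAV replicate 3. Within 8.0.0 the difference was 0.266 points and within 9.0.1 it was 2.21 points, each from 1 capture a group. Without *Yap5SA* AAV replicate 3 the difference was 0.0711 points. How much pigment epithelium stayed on each retina at dissection was not recorded in the sources used here, and its part in the shares was not tested.

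The genes of the rule did not all mark the cells. *Ttr*, a thyroid hormone and retinol carrier, had a UMI in 85 of 85 cells, *Rpe65* in 81, *Dct* in 80, *Lrat* (retinol esterification) in 77, *Tyrp1* in 46, *Mlana* (a melanosome protein) in 24 and *Pmel* (the melanosome fibril protein) in 6. *Best1*, a chloride channel of the basal membrane, had a UMI in 0 of 85 cells, which allows a share of cells with a UMI of up to 3.53%, beside 0.909% of the 10666 other barcodes. The limit lies above the share in the other barcodes, so a difference in *Best1* was not detectable at this depth. *Pmel* was sparse, and its 6 cells all lay in *Yap5SA* AAV replicate 3 (6 of 60, with 0 of 22 in *mKate2* AAV replicate 2 and 0 of 3 in *Yap5SA* AAV replicate 1). With each cell thinned to 1000 UMIs, the share in *Yap5SA* AAV replicate 3 was 3.33%. The rule used *Pmel*, so its 7.06% of cells beside 0.834% of the other barcodes is a description only. *Best1* and *Pmel* are both among the 6 markers that define the label. The other rule genes had a UMI in 0.0469% (*Mlana*) to 3.23% (*Ttr*) of the other barcodes. In 1122 cells of the microglia and macrophage class (at least 5 of 10 markers), which should lack these genes, *Ttr* had a UMI in 1.52%, *Best1* in 1.96%, *Pmel* in 0.713% and *Rpe65* in 0.0891%. Median depth in the captures with 22 and 60 cells was 7118 and 7422 UMIs in the pigment epithelium-like cells against 3948 and 5352 in that class. Thinned to 1000 UMIs, *Rpe65* had a UMI in 63.6% of the 22 and 93.3% of the 60 cells, and *Ttr* in 95.5% of the 22 and in all of the 60.

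The share of a cell's UMIs from the 8 genes ran from 0.680% to 16.9% with a median of 5.48%. At the rule's edge, 9 cells held exactly 3 of the genes, with a median of 2.86% of their UMIs from them, whereas the 32 barcodes that held 2 had a median of 0.0168%. Only 2 of these 32 also had UMIs of both *Rgr* and *Rdh5*. The shares overlapped across the edge: barcodes with 2 of the genes reached 4.48% and more, 1 of them with 259 UMIs of *Ttr*, and 1 barcode outside the rule in *mKate2* AAV replicate 2 had 23.9% of its UMIs from the 8 genes. The remaining members held 4 (25 cells), 5 (36), 6 (13) or 7 (2) of the genes.

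**Figure D2:**
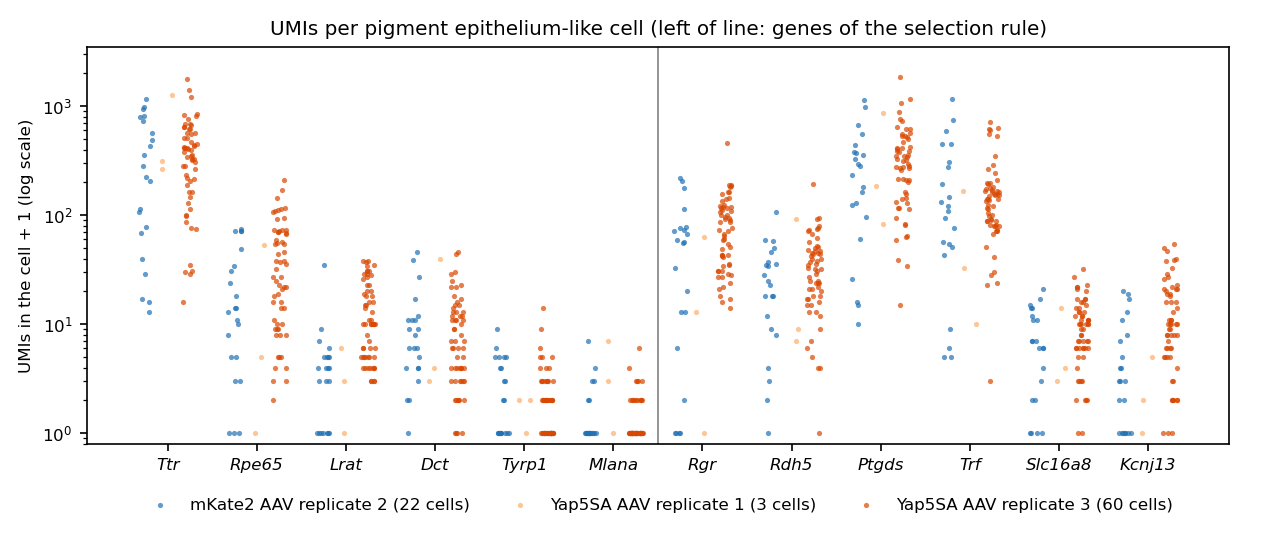
UMIs plus 1 per pigment epithelium-like cell (log scale) for 6 rule genes, left of the line, and 6 genes outside the rule. Each point is a cell, blue for mKate2 AAV replicate 2, light orange for Yap5SA AAV replicate 1 and dark orange for Yap5SA AAV replicate 3; Ttr and Ptgds have UMIs in every cell, and Rgr in 80 of 85.

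For the genes outside the rule, the UMIs of the pigment epithelium-like cells were summed in each capture with at least 10 of them (*mKate2* AAV replicate 2 with 161194 UMIs and *Yap5SA* AAV replicate 3 with 466202) and compared with the sum over all other barcodes of the same capture. edgeR's quasi-likelihood test with capture as a term left 1 residual degree of freedom. Of 15410 genes tested, 1057 (6.86%) were higher and 3016 (19.6%) lower at a Benjamini-Hochberg adjusted p below 0.05, and the median log2 fold change of all genes was -0.93. The cells were chosen from these libraries by genes that go with the same cell type, so the p-values describe how far the chosen cells stood from the rest and are no independent evidence of a type. Fold changes below are log2 values of that fit with the standard error, and levels are CPM, the UMI counts of a gene scaled to a common total per sum.

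Genes for secreted proteins took much of the UMIs in these cells. *Ttr*, *Ptgds*, *Cst3* and *Trf* together took 16.0% of the UMIs in *mKate2* AAV replicate 2, 14.8% in the 3 cells of *Yap5SA* AAV replicate 1 and 14.4% in *Yap5SA* AAV replicate 3, against 0.145% to 0.299% in the other cells. They were the 4 most abundant genes in *mKate2* AAV replicate 2 alone. In *Yap5SA* AAV replicate 1, *Mt1* stood above *Ptgds*, at 57115 CPM against 2169.8 in the other cells. In *Yap5SA* AAV replicate 3, *Cmss1* stood above *Cst3* and *Trf*, at 26604 CPM against 10041. *Ptgds*, which encodes prostaglandin D synthase, a carrier of retinoids as well, stood at 42700.1, 41147 and 46960.3 CPM in these 3 captures against 106, 204 and 93.4 in the other cells (log2 fold change 8.94 ± 0.48). *Trf*, the iron carrier transferrin, stood at 31447, 7478 and 22525 CPM against 715, 819 and 259 (6.08 ± 0.42). No capture's other cells reached the level of its pigment epithelium-like cells for either gene.

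Genes of the retinoid cycle were higher almost throughout. Of the 10 such genes outside the rule, 9 were higher, 0 lower and 1 (*Rbp4*, the serum retinol carrier, 2 UMIs in all) did not pass, with a median log2 fold change of 3.09. *Rgr* stood at 8239 CPM in *mKate2* AAV replicate 2, 2673 in *Yap5SA* AAV replicate 1 and 11004 in *Yap5SA* AAV replicate 3, against 1.85, 2.96 and 10.7 in the other cells (11.17 ± 0.50, adjusted p = 8.29e-105). *Rdh5*, the dehydrogenase that completes 11-cis-retinal, stood at 3784, 3829 and 4725 CPM against 3.61, 9.42 and 5.86 (9.97 ± 0.47). *Rgr* and *Rdh5* were thus far higher per UMI in the pigment epithelium-like cells of each capture that had them. In *Yap5SA* AAV replicate 1, with 3 such cells, the many other cells held 121 UMIs of *Rdh5* in sum against 106, at the far lower level of 9.42 CPM. *Stra6*, the receptor that takes up retinol, stood at 453, 469.6 and 755 CPM against at most 0.707 (10.02 ± 0.50). *Rlbp1*, the carrier of 11-cis retinoids that Müller glia share, rose from 622 and 1225 CPM to 1563 and 3279.7 (adjusted p = 3.25e-05), and against the Müller glia class alone its difference did not pass (0.49, adjusted p = 0.322).

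Melanin genes outside the rule were higher in 9 of 12, lower in 1 and not past the threshold in 2 (*Rab38* and *Myo7a*), with a median log2 fold change of 4.39. *Tyr*, tyrosinase, the first enzyme of melanin synthesis, stood at 298, 181 and 324 CPM against at most 0.297 in the other cells (10.13 ± 0.54). *Gpr143*, the melanosome receptor of ocular albinism, stood at 80.6 and 75.1 CPM against 0.0212 and 0.0707 (10.95 ± 1.04). *Oca2*, a melanosome membrane transporter, stood at 161, 361 and 217 CPM against at most 0.707 (8.73 ± 0.56). All were low in UMIs per cell: *Tyr* had 48 UMIs over 12 of 22 cells and 151 over 43 of 60. *Gpnmb*, a melanosome and lysosome glycoprotein, stood at 788, 217 and 210.2 CPM against 9.54, 5.45 and 16.6 (5.16 ± 0.42). *Trpm1*, a channel of melanocytes and ON bipolar cells, was lower (-1.33 ± 0.42, adjusted p = 0.00906), but against the Müller glia class its value turned to 0.82 (adjusted p = 0.275).

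Of 8 transcription factors of the eye's pigment cells, 7 could be tested, with 2 higher, 2 lower and a median of -0.09. *Otx2* stood at 397, 397 and 521 CPM against 97.8, 2.49 and 94.4 (2.38 ± 0.35) and *Mitf*, the master regulator of melanin genes, at 124, 36.1 and 62.2 against 20.1, 39.5 and 24.7 (2.07 ± 0.50). The call of *Mitf* was lost without *mKate2* AAV replicate 2 (adjusted p = 0.641) and without *Yap5SA* AAV replicate 3 (adjusted p = 0.612). *Pax6*, which amacrine cells and glia keep, had 0, 0 and 1 UMI in the pigment epithelium-like cells, against 203, 406 and 307 CPM in the others. *Crx*, the photoreceptor factor, had 0 UMIs, at least 4.27-fold lower than the other cells in *mKate2* AAV replicate 2 and at least 21.9-fold lower in *Yap5SA* AAV replicate 3 (limits from 3 counts per sum). *Sox9*, shared by Müller glia and pigment epithelium, stood at 292, 397 and 330.3 CPM against 324, 369 and 399.8 (-0.09 ± 0.34, adjusted p = 0.880), but against the Müller glia class alone it was lower (-1.07, adjusted p = 0.0104).

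**Figure D3:**
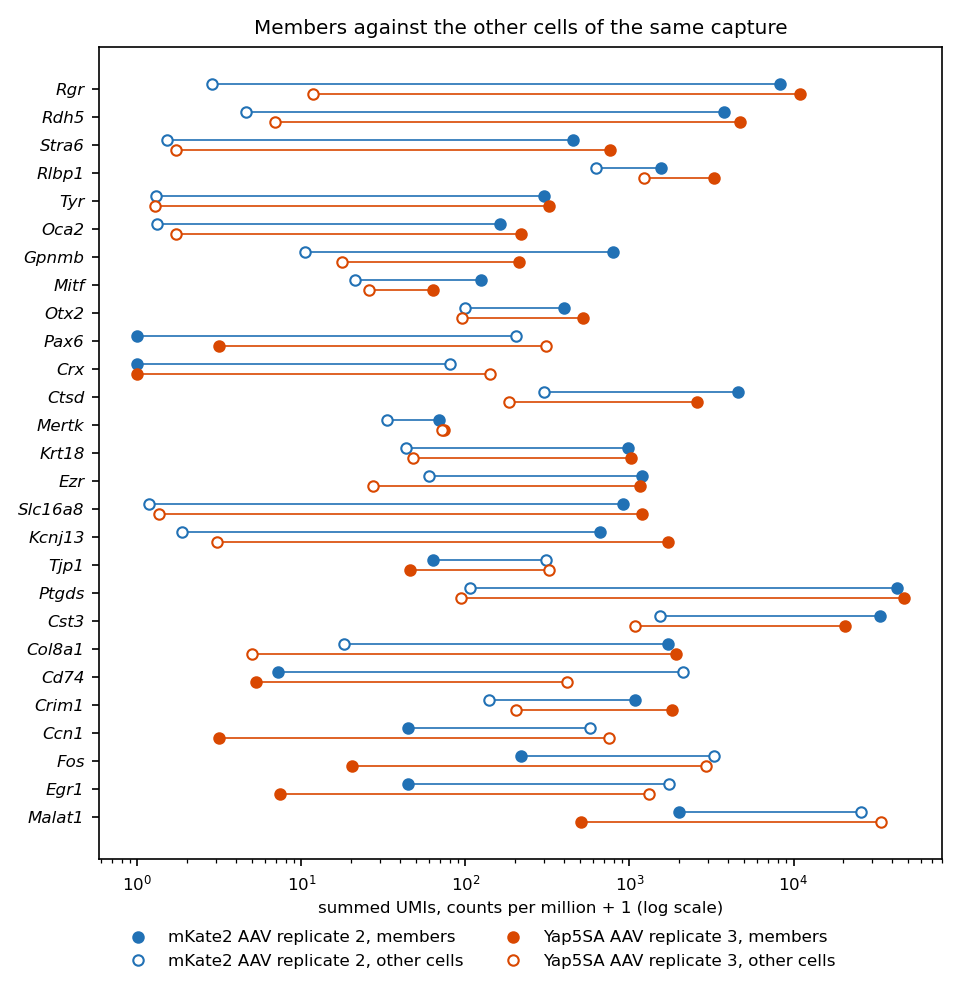
Summed UMIs in CPM plus 1 (log scale) of named genes in the pigment epithelium-like cells (members, filled) and the other cells (open) of mKate2 AAV replicate 2 (blue) and Yap5SA AAV replicate 3 (orange). Both captures run the same way for each called gene shown: Rgr, Rdh5 and Ptgds lie to the right in the filled points, and Pax6, Crx, Cd74 and Fos to the left.

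Epithelial and transport genes were higher in 16 of 19 tested, lower in 1 and not past the threshold in 2, with a median of 4.81. *Slc16a8*, the lactate transporter MCT3 of the basal membrane, stood at 912, 650.3 and 1199 CPM with at most 0.353 elsewhere (12.19 ± 0.53, adjusted p = 2.52e-110). *Kcnj13*, the apical potassium channel Kir7.1, stood at 658, 181 and 1714 CPM against at most 2.10 (9.75 ± 0.47). *Bsg*, the chaperone of lactate transporters, stood at 5899.7, 2926 and 3981 CPM against 740.2, 1107 and 851 (2.74 ± 0.34), and *Car14*, a carbonic anhydrase that Müller glia also carry, at 1824, 867 and 1840.4 against 197, 430.4 and 438 (2.76 ± 0.34). The keratins of simple epithelia rose, *Krt18* to 974, 975 and 1021 CPM from 42.5, 37.5 and 46.7 (4.61 ± 0.37) and *Krt8* to 186, 289 and 253 from at most 0.615 (9.22 ± 0.55). *Ezr*, which anchors apical microvilli, rose with 5.03 ± 0.38. *Tjp1*, the tight junction scaffold, was lower (-2.48 ± 0.42), and *Cldn19*, *Aqp1* and *Slc16a3* had 0 UMIs, none of them with a call. The call of *Cdh1*, E-cadherin, rested on 8 UMIs in 1 cell of *mKate2* AAV replicate 2, while *Cdh3*, P-cadherin, rose from 1.68 and 2.54 to 112 and 118 CPM over 7 and 24 cells (5.90 ± 0.58).

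Of 14 genes for secreted factors and matrix, 9 were higher, 1 lower (*Efemp1*) and 4 not past the threshold, with a median of 3.01. *Cst3*, a cysteine protease inhibitor, stood at 33767, 32658 and 20649.8 CPM against 1542, 1964 and 1080.0 (4.48 ± 0.39). *Col8a1*, a collagen of basement membranes, stood at 1725, 397 and 1919.8 CPM against 17.2, 23.7 and 3.96 (7.85 ± 0.43), and its partner chain *Col8a2* was at 347, 469.6 and 463 against at most 0.403 (10.40 ± 0.53). *Timp3*, a protease inhibitor of that membrane, rose from 821 and 755 to 2996 and 3646 CPM (2.20 ± 0.33). A pair of factors often named for this epithelium did not pass: *Vegfa* with 74.4, 145 and 206 CPM against 135, 162 and 141 (0.12 ± 0.39), and *Serpinf1*, which encodes PEDF, with 7, 0 and 0 UMIs.

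Of 10 phagocytosis and lysosome genes, 5 were higher, 1 lower (*Mfge8*) and 4 not past the threshold, with a median of 1.06. *Ctsd*, the main lysosomal protease of the pigment epithelium, stood at 4616, 1626 and 2591 CPM against 298, 143 and 183 (4.01 ± 0.36), and *Ctsb* at 1774, 542 and 1145 against 541, 426 and 331 (1.88 ± 0.33). *Itgav*, the alpha chain of the integrin that binds outer segments, rose with 2.14 ± 0.35. Its partner *Itgb5* (0.45 ± 0.44) and *Mertk*, the engulfment receptor (0.60 ± 0.48), did not pass. Of 8 complement and antigen presentation genes, 1 was higher and 3 lower, with a median of -0.42. *Cd74*, the invariant chain of class II presentation, had 1, 1 and 2 UMIs against 2131, 3503 and 415 CPM.

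Of 12 YAP target genes, 11 could be tested, with 2 higher and 3 lower and a median of -1.36, beside the 6.86% and 19.6% of all genes. *Crim1*, a regulator of growth factors, stood at 1079, 650.3 and 1806 CPM against 139, 190.4 and 201 (3.19 ± 0.34), and *F3*, tissue factor, at 186, 181 and 174 against 71.2, 54.8 and 61.0 (1.58 ± 0.38, not past the threshold against the Müller glia class, 0.62, adjusted p = 0.225). *Ccn1* was lower, with 7, 0 and 1 UMIs (-5.40 ± 0.50). *Ccn2* and *Axl* were called lower too, on uneven values. *Ccn2* stood at 62.0 CPM against 73.3 in *mKate2* AAV replicate 2 and had 0 UMIs in *Yap5SA* AAV replicate 3, at least 20.7-fold lower. *Axl* had 0 UMIs, at least 1.15-fold lower in *mKate2* AAV replicate 2 and at least 2.29-fold lower in *Yap5SA* AAV replicate 3. Of 8 cell cycle genes, 6 could be tested and 1 was higher, *Cdk1* with 1 and 9 UMIs. *Mki67* and *Ccnb1* had 0 UMIs in all 85 cells and could not be tested.

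The 10 stress genes that dissociation induces were all lower, with a median of -5.52 (-5.38 with the gene at 0 set to its bound). This depended on which barcodes were summed: with barcodes of at least 2 rule genes, 7 of the 10 turned positive and none of the 10 passed the threshold (*Fos* 0.73, adjusted p = 0.805). That setting adds deep barcodes with few UMIs of the rule genes. In *mKate2* AAV replicate 2, 1 of them held 192686 UMIs (0.00104% from the 8 genes), against 161194 in the 22 chosen cells together. The part of such barcodes in the turn was not tested. *Fos* stood at 217 (35 UMIs in 3 cells), 0 and 19.3 CPM in the pigment epithelium-like cells against 3267, 961 and 2917 in the others (-5.20 ± 0.41, adjusted p = 4.97e-34), and *Egr1* at 43.4, 36.1 and 6.43 against 1728, 363 and 1312 (-6.25 ± 0.47). With every cell thinned to 1000 UMIs, *Fos* had a UMI in 4.55% of the 22 and 0% of the 60 cells, against 43.8% and 35.3% of the other cells. *Malat1*, a nuclear noncoding RNA singled out after its values were seen, stood at 2010.0, 1301 and 504 CPM against 25738, 64101 and 34325 (-4.75 ± 0.41). The mitochondrial share was lower too in the larger captures: its median was 2.58% and 1.03% in the cells of the 2 larger captures against 4.14% and 5.02% in the others, and ribosomal protein genes took 4.77% and 4.37% against 10.5% and 7.74%. In *Yap5SA* AAV replicate 1 both went the other way, with 4.80% against 2.36% mitochondrial and 7.28% against 6.61% ribosomal. Their part in the differences was not tested.

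Outside the lists, the 15 largest rises were *Gsx2*, *Sult1c1*, *Pon1*, *Prdm16os*, *E130120K24Rik*, *Gm3776*, *Serpine3*, *Gm57100*, *Cox8b*, *Gip*, *Adam7*, *Tspan10*, *Gsta1*, *Krt23* and *Slc26a7*. *Pon1*, a lipid lactonase, stood at 1526, 506 and 1658 CPM against at most 0.467 (12.14 ± 0.52) and had UMIs in 19 of 22, 3 of 3 and 54 of 60 cells. *Cox8b*, an isoform of a cytochrome oxidase subunit known from muscle and brown fat, stood at 695, 1589.5 and 931 CPM against at most 0.382 (11.56 ± 0.52), and *Slc26a7*, an anion exchanger, at 887, 72.3 and 862 against at most 0.594 (10.89 ± 0.50). *Tspan10*, a tetraspanin, had UMIs in 12, 2 and 40 cells (11.14 ± 0.65). *Pon1* and *Slc26a7* thus had UMIs in most cells of the 2 larger captures, whereas *Gsx2*, a homeodomain factor, had 8, 1 and 12 UMIs. *Gsta1* and *Gm3776* belong to a family of near-identical genes among which reads can be split, so their separate values are uncertain. The 5 largest falls were *Cntn5*, *Pak3*, *Guca1a*, *C1qb* and *Gria4*, each with 0 UMIs in the pigment epithelium-like cells. *Cntn5*, a neuronal adhesion molecule, was at least 35.7-fold and 84.1-fold lower in the 2 captures, and *C1qb* of microglia at least 33.6-fold and 32.5-fold lower.

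The label was checked against marker lists of 12 pigment epithelium genes that the rule did not use and of other cells. Of these 12 genes, 11 were higher and 1, *Trpm3*, a channel that Müller glia share, was not past the threshold, and their sum was 19442, 11416 and 24695 CPM against 1212, 2327 and 1936. The 10 rod markers were all lower, at 112 and 174 CPM in sum against 5208 and 13407, and the 10 microglia and macrophage markers were at 155 and 195 CPM against 3120.0 and 1067, with *C1qb*, *Cx3cr1*, *P2ry12* and *Aif1* at 0. The 8 amacrine markers were at 179.9 and 193 CPM against 390.4 and 426, but 1 of them, *Slc6a9*, was higher (3.27 ± 0.42). *Slc6a9* stood at 179.9 and 189 CPM against 21.8 and 20.1, with UMIs in 15 of 22 and 34 of 60 cells. The 6 neural crest melanocyte markers were at 93.1 and 51.5 CPM against 20.6 and 24.2. Of those 6, *Sox10* passed the test (9 and 19 UMIs). *Mc1r* and *Mcoln3* were at 0 but could not be tested. The other cells held at most 1.27 CPM of either, too little for a lower level to be measured. No doublets were removed, and single cells held at most 0.0982% of their UMIs from rod markers and 0.192% from microglia markers. From the 10 Müller glia markers they held up to 6.93%, in a cell of *mKate2* AAV replicate 2 with 7558 UMIs. The medians were 2.12% in that capture and 2.19% in *Yap5SA* AAV replicate 3. Mixing with Müller glia was not tested.

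Of the 10 Müller glia markers, 6 were lower, 2 higher (*Clu* and *Rlbp1*) and 2 not past the threshold (*Apoe* and *Sox9*), and 4 of the 6 were at or near 0, *Crym* with 0, 0 and 2 UMIs among them. *Slc1a3*, the glutamate transporter whose promoter drives Cre, had UMIs in 1 of 22, 0 of 3 and 1 of 60 cells (-6.78 ± 0.59), *Aqp4*, the water channel of glial endfeet, in 0, 0 and 2 cells, and *Kcnj10*, the glial potassium channel, had 0 UMIs, at least 2.86-fold and 11.2-fold lower than the other cells. *Glul*, glutamine synthetase, was lower but present, at 806 and 978 CPM against 2314 and 4098, in 20 of 22 and 58 of 60 cells. The sum of the 10 Müller glia markers was nonetheless 24889 and 22979 CPM against 16763 and 14610.1, with *Clu*, an extracellular chaperone, at 15602 and 10523 CPM and *Apoe*, a lipid carrier, at 6415 and 7769. *Gfap*, whose promoter drove FlpO, had 0 UMIs in the 85 cells, against 119, 119 and 4.52 CPM in the other cells. That was at least 6.37-fold lower in *mKate2* AAV replicate 2 and at least 1.10-fold lower in *Yap5SA* AAV replicate 1. In *Yap5SA* AAV replicate 3 the other cells held too little *Gfap* for a lower level to be measured. tdTomato has its own entry in the matrices made by Cell Ranger 8.0.0 alone, and there it had a UMI in 0 of 3 pigment epithelium-like cells of *Yap5SA* AAV replicate 1 (exact interval up to 70.8%), 62.8% of the 869 Müller glia class cells and 2.90% of 138 microglia class cells. Median depth was 5049, 10393 and 12772 UMIs in these groups.

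**Figure D4:**
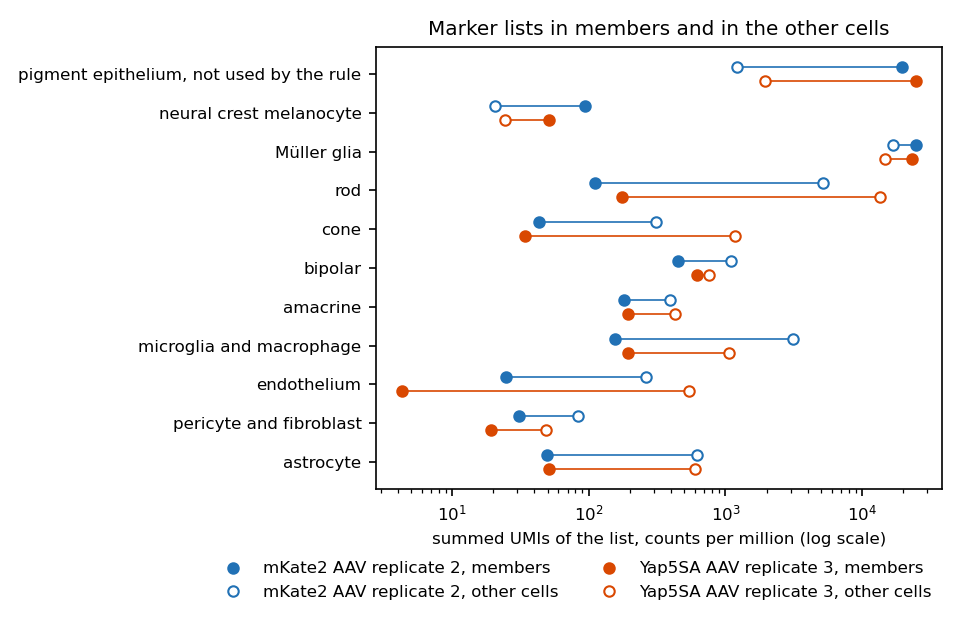
Summed UMIs of each marker list in CPM (log scale) in the pigment epithelium-like cells (members, filled) and other cells (open) of the 2 larger captures, mKate2 AAV replicate 2 in blue and Yap5SA AAV replicate 3 in orange. Pigment epithelium markers outside the rule lie to the right in the filled points, at 19442 and 24695, and rod and microglia markers to the left.

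The cells also differed among themselves. *Rgr* was without a UMI in 5 of 85 cells, 4 of the 22 of *mKate2* AAV replicate 2 and 1 of the 3 of *Yap5SA* AAV replicate 1, and 4 cells lacked *Rpe65*. Both genes had UMIs in all 60 cells of *Yap5SA* AAV replicate 3 and in 78 of the 85. One of the 5, with 6878 UMIs in all, had 1155 UMIs of *Ttr*, 69 of *Ecrg4* (a secreted peptide precursor of epithelia) and 33 of *Gpx3* (a secreted glutathione peroxidase) but 0 of *Rpe65* and 1 of *Rdh5*. A second, with 7558 UMIs, had 171 UMIs of *Chil1* (a secreted chitinase-like protein), 31 of *Aebp1* (a matrix protein), 374 of *Ptgds*, 17 of *Rdh5* and 0 of *Rpe65*. The other 3 had 2 to 17 UMIs of *Rpe65*.

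Some genes came in few cells but in large numbers there. *Serpine3*, a serine protease inhibitor, had 680 UMIs in 7 of 22 cells, of which 506 lay in 1 cell, and 299 UMIs in 2 of 60 cells, with 205 in 1, while 76 of the 85 cells had none. All 9 cells with *Serpine3* had UMIs of *Rpe65* and *Rgr*. *Sult1c1*, a sulfotransferase, had 31 UMIs in 5 of 22 cells and 349 UMIs in 23 of 60. By contrast *Ttr* ran from 12 to 1155 UMIs a cell (median 252) in the 22 cells and from 15 to 1767 (median 366) in the 60, and *Ptgds* from 9 to 1153 and from 14 to 1837.

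The *Yap5SA* AAV and *mKate2* AAV cells could be set side by side from 1 capture each, so there is no test, and treatment, capture and software version cannot be told apart. Values are CPM of the sums with exact Poisson 95% intervals, which cover counting error only. *Lrat* stood at 1716 (1599 to 1839) in *Yap5SA* AAV replicate 3 against 539.7 (432 to 666) in *mKate2* AAV replicate 2, and *Rpe65* at 5809 (5592 to 6032) against 3183 (2913 to 3470.2). *Kcnj13* stood at 1714 (1597 to 1837) against 658 (538 to 795) and *Rlbp1* at 3279.7 (3117 to 3448) against 1563 (1376 to 1769). *Kcnj13* and *Rlbp1* were thus higher in *Yap5SA* AAV replicate 3. *Lrat* and *Rpe65* were too, but the rule used them, as it did *Ttr*, *Tyrp1* and *Dct*, so these values are a description only. In *mKate2* AAV replicate 2, *Lrat* had UMIs in 15 of 22 cells, with 34 of its 87 UMIs in 1 cell, and *Rpe65* in 19. All 60 cells of *Yap5SA* AAV replicate 3 had UMIs of each. *Ttr* was close, at 53739 (53075 to 54408) and 52378 (51267 to 53507), as was *Tyr*, at 324 (274 to 379.9) and 298 (219.6 to 395). Going the other way, *Gpnmb* stood at 210.2 (171 to 256) against 788 (657 to 937), *Gas6* at 124 (94.5 to 161) against 465 (366 to 583) and *Ctsd* at 2591 (2447 to 2741) against 4616 (4289.8 to 4959). Other pigment genes were lower there too, but with overlapping intervals. *Tyrp1* stood at 167 (132 to 209) against 254 (183 to 345), *Dct* at 1175 (1079 to 1278) against 1371 (1196 to 1564) and *Mitf* at 62.2 (41.7 to 89.3) against 124 (75.8 to 192).

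Of 1909 genes with at least 50 UMIs over both sums, 16 (0.838%) were at least 4-fold higher in *Yap5SA* AAV replicate 3 and 15 (0.786%) at least 4-fold higher in *mKate2* AAV replicate 2, limits that were chosen after the values were seen. The most unequal was *Gpx3*, with 66 UMIs in 5 of 22 cells against 1 UMI in 60 cells (409 and 2.14 CPM). The 5 were the 4 cells of that capture without *Rgr*, with 6, 11, 33 and 2 UMIs, and a cell with 1 UMI of *Rgr* that held 14. *Serpina3n*, an inhibitor of serine proteases that reactive glia induce, had 510 UMIs in 16 of 22 cells against 27 in 13 of 60 (3164 and 57.9 CPM). The other cells ran the same way, with 198 and 8.13 CPM of *Serpina3n*. *Chil1* had 529 and 169 UMIs (3282 and 363 CPM) in 20 of 22 and 44 of 60 cells, with 126 and 44.9 CPM in the other cells. Of the 15 genes, 7 were also at least 2-fold higher in the other cells of *mKate2* AAV replicate 2, and of the 16, 0 were so in *Yap5SA* AAV replicate 3.

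Of the 16, *Rnf152*, a ubiquitin ligase of lysosomes, had 97 UMIs in 37 of 60 cells against 4 in 3 of 22 (208 and 24.8 CPM), and *Rapgef4*, the cyclic AMP sensor EPAC2, 103 in 39 cells against 6 in 5 (221 and 37.2 CPM). *Vldlr*, a lipoprotein receptor, had 89 UMIs against 6 (191 and 37.2 CPM). The 3 cells of *Yap5SA* AAV replicate 1 had 0 UMIs of *Rnf152*, 6 of *Rapgef4* (217 CPM) and 1 of *Vldlr* (36.1 CPM). They had 0 UMIs of *Gpx3*, 2 of *Serpina3n* (72.3 CPM) and 27 of *Chil1* (975 CPM).

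**Figure D5:**
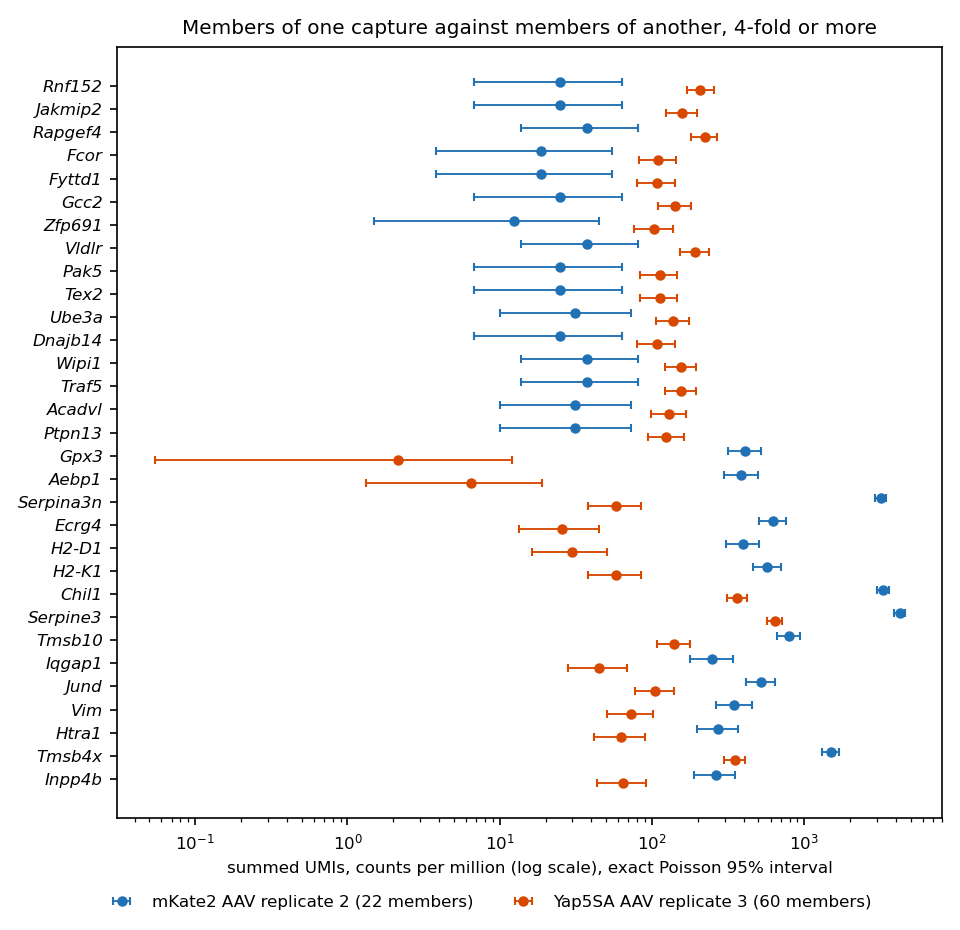
CPM of the summed UMIs (log scale) of the 31 genes that differed at least 4-fold between the pigment epithelium-like cells of mKate2 AAV replicate 2 (blue, 22 cells) and Yap5SA AAV replicate 3 (orange, 60 cells). Bars are exact Poisson 95% intervals; Gpx3, Aebp1 and Serpina3n show the widest gaps, over 50-fold.

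Part of this contrast lay in 1 barcode. The deepest cell of *mKate2* AAV replicate 2, with 19411 UMIs, held 66.3% of the capture's *H2-K1* UMIs in pigment epithelium-like cells, 71.9% of *H2-D1* (both class I antigen presentation genes, whose near-identical family makes their separate counts uncertain), 58.9% of *Vim*, 68.5% of *Tmsb10*, 85.0% of *Iqgap1* and 81.8% of *Malat1*. It held 6 of the 8 rule genes, 0 UMIs of the 10 rod markers and 1 of the microglia markers. Without it, 8 of the 15 genes and 10 of the 16 genes remained at 4-fold with 50 UMIs (*H2-D1* kept a ratio of 4.23 on fewer UMIs), *H2-K1* stood at 219 CPM against 57.9 and *Malat1* at 416 against 504. *Gpx3*, *Aebp1*, *Serpina3n*, *Ecrg4*, *Chil1* and *Serpine3* kept their gaps without that barcode, although *Gpx3* lay in the 5 cells with little or no *Rgr*.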

How the data were processed

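Sorted cells were profiled with 10x 3' v3.1 gene expression libraries. The authors deposited UMI counts per gene and barcode as written by Cell Ranger on GRCm39, with no normalization. The submitters' processing notes name version 8.0.0, while the matrix headers name 8.0.0 for 3 libraries and 9.0.1 for 2. Limits on UMIs and mitochondrial share were set here, no doublet caller was run, and the replicate that repeats another's cells was left out.

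Counts of the chosen cells and of all other barcodes were summed per capture with at least 10 chosen cells and compared in edgeR 4.0.16 (R 4.3.3; filterByExpr, TMM, glmQLFit and glmQLFTest, capture as a term, Benjamini-Hochberg over all genes); the standard error is the log2 fold change over the square root of F. The test was checked on simulated data. Genes named outside the lists are the 15 largest rises and 5 largest falls among genes called and moved alike in both captures; in lists, genes with the highest levels in the chosen cells or the largest fold were named, and further members were named with their values known. Shares of barcodes were compared by an exact permutation test in scipy 1.17.1. Members and lists were chosen with earlier results of these data known. Replicate numbers do not pair captures, and with 1 usable capture a group *Yap5SA* AAV and *mKate2* AAV cells could not be tested. Depth was 1019 to 24774 UMIs per chosen cell in the 2 larger captures, so genes at a few UMIs are imprecise. Alternatives were DESeq2 1.42.0, no filter, no capture term, other rules for the cells, the Müller glia class as reference and each capture left out. Some genes of the lists are counted but not reported by name here.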

Additional observations from a re-analysis of the deposited data

Results flagged for a closer look

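Among the gene lists other than the cell type markers, 4 genes were picked out. In *mKate2* AAV replicate 2 the pigment epithelium-like cells lay above the other cells in these genes. They were not above them in either *Yap5SA* AAV capture, a difference that was not tested. The share of such genes over all genes was not counted. The markers *Ly6c1*, *Egfl7* and *Dcn* ran the same way, each with 2 UMIs in *mKate2* AAV replicate 2. For *Cdh1*, *Serpinf1* and *Top2a* the *Yap5SA* AAV cells had 0 UMIs, too few to measure a lower level. The ratio of the levels in *mKate2* AAV replicate 2 was 30.0 for *Cdh1*, with 8 UMIs in 1 cell. It was 6.44 for *Serpinf1*, with 7 UMIs in 6 cells. It was 1.45 for *H2-K1* and 1.95 for *Top2a*, the latter with 3 UMIs in 1 cell. The same cell, the deepest of its capture with 19411 UMIs, held all UMIs of *Cdh1* and *Top2a* and 66.3% of those of *H2-K1*. Without it *H2-K1* stood at 219 CPM, under the 395 CPM of the other cells, so its direction turned.

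Barcodes outside the limits on depth and mitochondrial share, which enter no comparison, also held at least 3 of the 8 rule genes. Their share was 0.357% (1 barcode) in *Yap5SA* AAV replicate 1, 0.386% (1 barcode) in replicate 2 and 0.364% (4 barcodes) in replicate 3. In *mKate2* AAV it was 0% in replicate 1 and 0.0478% (1 barcode) in replicate 2.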

How the results depend on the processing

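Depth limits genes at a few UMIs, and the comparison with other cells rests on 2 captures. No paired analysis was possible because the captures that entered share fewer than 2 replicate numbers, and the comparison of *Yap5SA* AAV with *mKate2* AAV inside the chosen cells, with 1 usable capture a group, could not be fitted. The number of cells ran from 67 (thinned to 1000 UMIs) to 117 (at least 2 rule genes), and the difference in share stayed positive in every setting, with 0.0711 to 2.40 points when 1 capture was left out. The alternatives on captures with at least 3 cells, on members with *Rpe65* and *Rgr*, without the deepest cell, within software versions and at 100 UMIs were chosen after seeing the data.

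Against 1057 higher and 3016 lower genes, DESeq2 called 709 and 1351 of 8835 genes. With barcodes of at least 2 rule genes, which adds barcodes of up to 192686 UMIs with few UMIs of the rule genes, the counts were 307 and 329. Among captures with at least 3 cells (758 and 2872), leaving 1 out gave 172 to 1057 higher and 354 to 3016 lower genes, the lowest without *Yap5SA* AAV replicate 3 and 308 and 700 without *mKate2* AAV replicate 2. The 4-fold counts between captures, 16 and 15, were 84 and 315 with at least 2 rule genes and 2 and 8 with at least 100 UMIs. The cause was not tested.

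With at least 2 rule genes the log2 fold change turned positive for *C3* (1.24), *Ccn1* (0.30), *Axl* (0.05), *Fos* (0.73), *Fosb* (1.17), *Jun* (0.42), *Junb* (0.56), *Egr1* (0.92), *Atf3* (0.68), *Dnajb1* (1.25), *Malat1* (0.08), *Slc1a3* (0.07), *Dkk3* (0.28) and *Kcnj10* (0.26), none past the threshold. *Trpm1* turned to 0.82 against the Müller glia class and ran from -2.25 to 0.08 with 1 capture left out (0.08 without *mKate2* AAV replicate 2). Without the deepest cell and with only members that had *Rpe65* and *Rgr*, 138 and 140 named genes tested kept direction and call. Calls were lost in 35 named genes without *Yap5SA* AAV replicate 3, in 28 without *mKate2* AAV replicate 2, in 36 with at least 2 rule genes, in 10 with DESeq2 and in 10 without the capture term.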

Other observations

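The 6 endothelial markers summed to 24.8 CPM in *mKate2* AAV replicate 2 and 4.29 in *Yap5SA* AAV replicate 3, against 263 and 537 in the other cells. The 6 astrocyte markers summed to 49.6 and 51.5 CPM against 618 and 603, and the 8 cone markers to 43.4 and 34.3 against 311 and 1179. Bipolar markers, which include *Otx2*, summed to 447 and 624 CPM against 1099 and 758, and in *Yap5SA* AAV replicate 1 they stood at 614 against 161.

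*Sox10*, a neural crest factor, had 9 UMIs in 7 of 22 cells, 3 in 1 of 3 and 19 in 15 of 60 (log2 fold change 10.56 ± 1.49, edgeR quasi-likelihood test, adjusted p = 4.15e-11).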
